A study of Mus musculus with 12 samples.

Results

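Teneurins, neurexins and neuroligins are adhesion proteins that span the cell membrane and hold the sending and the receiving side of a synapse together. Of these families 9 genes were followed in cells and tissue of the mouse superior cervical ganglion (SCG), out of 18193 genes that the arrays name. They are the teneurin genes Tenm1, Tenm2, Tenm3 and Tenm4, the neurexin genes Nrxn2 and Nrxn3, and the neuroligin genes Nlgn1, Nlgn2 and Nlgn3. Tenm2 was chosen by its own array values, as a gene that stood higher in tissue than in culture, so its tissue levels are a description without a test. The other genes were taken by family.

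In the brain, neurexins sit on the presynaptic membrane and bind postsynaptic partners, of which neuroligins are the best known. Teneurins are large proteins with a short intracellular and a very long extracellular part, and they bind latrophilins, a family of adhesion receptors, as well as other teneurins. The SCG is a sympathetic ganglion whose principal neurons make noradrenaline and receive cholinergic synapses from nerve fibres of the spinal cord.

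The study asked how cells in a 3D scaffold and cells on a flat surface differ from the ganglion itself, and 12 Affymetrix mouse genome arrays were analysed, 4 biological replicates in each of 3 groups. The SCG tissue was freshly dissected. The 3D cultures were collagenase-dissociated SCG cells grown for 5 days in porous polystyrene scaffolds, and the 2D cultures were the same kind of cells grown for 5 days on a flat dish, which the labels call polystyrene and the methods glass-bottomed. All animals were of the CD1 strain with no transgene, their age is 21 days in the labels but neonatal in the methods, and on average a pair of ganglia was pooled per dish. Both culture surfaces were coated with collagen and the medium held serum and nerve growth factor. The sources used here do not say that replicates came from separate animals or culture days, so p-values measure the spread between these arrays. Cultures hold every ganglion cell that survived dissociation, not neurons alone, and in such bulk RNA fewer cells of a type and less RNA per cell cannot be told apart.

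The values are log2 levels from the RMA algorithm, with no detection call, and the median of an array over all probe sets was 6.34 to 6.53, so a level in that range may lie close to background. An array carries 1 or more probe sets for a gene, each a group of short probes against 1 stretch of its transcripts. A gene is described by its brightest probe set, judged by the mean of the 12 arrays, and levels of different genes are not set against each other. The sympathetic marker Th, for the rate-limiting enzyme of catecholamine synthesis, was at 11.05 to 13.45 in tissue. It was at 9.44 to 10.63 in 3D cultures and at 9.59 to 12.44 in 2D cultures. Dbh, for the enzyme that makes noradrenaline, was at 10.79 to 13.78 in tissue, 11.94 to 12.80 in 3D and 11.41 to 12.99 in 2D. Both of these markers of the labelled ganglion lay above the array medians on every array. Tissue arrays were the least alike, with a mean correlation to the other arrays of their group of 0.922 to 0.962, against 0.992 to 0.996 in 3D and 0.977 to 0.986 in 2D. Tissue replicate 3 had the narrowest spread of levels, with an SD of 1.93 against 2.14 to 2.42 on the other arrays. The mean level of 8 skeletal muscle markers was 5.06, 8.77, 7.31 and 8.96 on tissue replicates 1 to 4, against 4.87 to 4.98 in 3D and 4.88 to 5.08 in 2D.

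The stretches of DNA ahead of Tenm2 and Tenm3 are shown because these are the teneurin genes whose levels lay farthest apart between tissue and cultures, and in opposite directions. Each is the 250 bases before the RefSeq transcript start in the mouse build GRCm38.p6, both on the minus strand: chr11:36944242-36944491 for Tenm2 and chr8:48674691-48674940 for Tenm3. Capitals mark matches, on either strand, to the GATA site GATAA (found on the other strand), the homeodomain site TAATTA and the cAMP response element TGACGTCA.
Tenm2: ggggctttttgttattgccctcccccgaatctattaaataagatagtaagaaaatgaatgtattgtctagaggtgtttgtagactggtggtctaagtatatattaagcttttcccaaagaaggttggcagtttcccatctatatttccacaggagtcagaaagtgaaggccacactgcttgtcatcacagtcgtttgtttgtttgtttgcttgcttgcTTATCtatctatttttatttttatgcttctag
Tenm3: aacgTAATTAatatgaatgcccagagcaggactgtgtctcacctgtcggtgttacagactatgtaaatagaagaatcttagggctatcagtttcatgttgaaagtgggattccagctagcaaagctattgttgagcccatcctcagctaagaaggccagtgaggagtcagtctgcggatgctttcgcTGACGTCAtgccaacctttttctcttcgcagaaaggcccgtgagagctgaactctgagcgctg

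The Tenm2 stretch held 1 GATA site, a motif that 23% of 27025 mouse promoters of this length hold at least once, and neither of the other marked motifs. The Tenm3 stretch held 1 homeodomain site and 1 cAMP response element, found in 4.9% and 1.62% of those promoters, and no GATA site. Also searched, but not marked, were the GC box GGGCGG, the E-box CANNTG, the TATA box TATAAA and the CCAAT box. Of these, the Tenm3 stretch held 1 E-box, found in 66% of those promoters, and the Tenm2 stretch held none. GC content was 37.2% for Tenm2 and 47.6% for Tenm3, against a median of 52%, and CpG counts were 2 for Tenm2 and 8 for Tenm3, against a median of 6. Both starts lie deep inside their genes, 292812 bases from the 5′ end of the annotated gene for Tenm2 and 848134 bases for Tenm3, so other transcripts of these genes begin elsewhere. A match describes the letters and is neither a binding site nor a cause, and the arrays do not show which start was used.

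The teneurins took different directions between tissue and culture. Tenm2, whose protein binds latrophilin 1 across the synapse, was at 10.87, 10.71, 9.65 and 10.56 in tissue, against 5.90, 5.50, 5.99 and 5.42 in 3D cultures and 6.70, 5.94, 6.94 and 5.10 in 2D cultures. Every tissue array lay above every culture array, the lowest tissue value by more than the whole range within any group. The means were 10.45 ± 0.55 in tissue, 5.70 ± 0.28 in 3D and 6.17 ± 0.83 in 2D (SD, n = 4 each), a difference of 4.75 from 3D and 4.28 from 2D on the log2 scale, or 26.8-fold and 19.4-fold. The 3D levels of Tenm2 all lay below the array medians, and its 2D levels lay on both sides of them. Such low levels may lie close to background, so these folds are estimates. The 3 other probe sets of Tenm2 differed by 1.34, 1.84 and -0.14 between tissue and 3D, and by 1.11, 1.79 and -0.20 between tissue and 2D, so the size of its difference depended on the probe set. The platform lists a RefSeq transcript for the probe set at 1.34 and 1.11 and not for the brightest.

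Tenm3, which in mice guides the wiring of visual and hippocampal maps, was lower in tissue. It was at 10.30, 9.55, 8.89 and 9.35 in tissue, against 12.54, 12.47, 12.54 and 12.57 in 3D cultures and 11.99, 11.76, 10.62 and 11.90 in 2D cultures. The 3 groups did not overlap, with tissue lowest and 3D highest, and the 3D arrays lay within 0.10 of each other. The tissue mean of 9.52 ± 0.59 was below the 3D mean of 12.53 ± 0.04 by 3.01 (SE 0.26, limma adjusted p = 8.49e-05), so that 3D cultures were 8.04-fold higher, and below the 2D mean of 11.57 ± 0.64 by 2.05 (SE 0.37, adjusted p = 0.00691), a call lost with tissue replicate 1 as the only tissue array (-1.27, adjusted p = 0.241). The other Tenm3 probe set differed by -2.65 between tissue and 3D (adjusted p = 2.97e-04) and by -1.33 between tissue and 2D, where it did not pass (adjusted p = 0.0799).

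Tenm1, an X-linked gene, was higher in tissue, at 8.78, 8.98, 7.83 and 8.75, against 6.97, 6.28, 6.43 and 6.38 in 3D cultures and 7.35, 6.74, 5.98 and 6.40 in 2D cultures. The tissue arrays stood above all culture arrays, while 3D and 2D arrays were intermixed. The difference was 2.07 from 3D (SE 0.27, limma adjusted p = 6.30e-04) and 1.97 from 2D (SE 0.34, adjusted p = 0.00526), or 4.20-fold and 3.91-fold. Several culture levels lay near or below the array medians, so these folds are estimates. The call against 2D was lost with the mean of both probe sets (1.06, adjusted p = 0.0551) and with tissue replicate 1 as the only tissue array (2.16, adjusted p = 0.0829). The dimmer Tenm1 probe set did not follow, with differences of 0.01 from 3D and 0.15 from 2D (adjusted p = 0.986 and 0.795). The platform lists a RefSeq transcript for this dimmer probe set and not for the brightest.

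Tenm4, which mice need for normal myelination in the brain, was at 9.47, 9.50, 8.39 and 9.36 in tissue, against 7.46, 7.03, 7.09 and 7.16 in 3D cultures and 7.55, 7.49, 7.24 and 6.89 in 2D cultures. Tissue again lay apart from both cultures, by a mean of 2.00 from 3D (SE 0.25, limma adjusted p = 5.85e-04) and 1.89 from 2D (SE 0.28, adjusted p = 0.00256). Its 3 probe sets went the same way: the others gave differences of 2.66 and 2.34 from 3D and of 2.10 and 1.84 from 2D, all past the threshold.

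**Figure D1:**
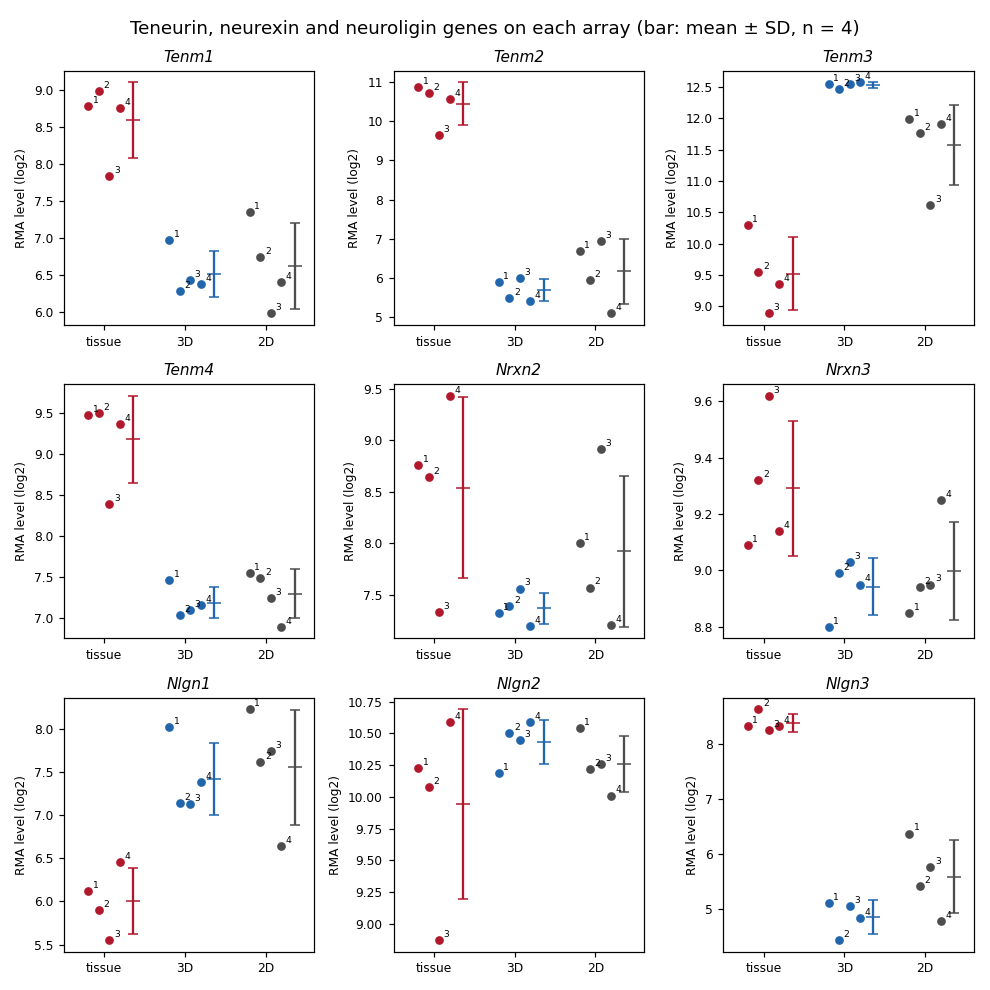
Log2 RMA level of each of the 9 genes (1 panel per gene, its own vertical axis) on every array of tissue (red), 3D cultures (blue) and 2D cultures (grey); small digits are replicate numbers and bars are mean ± SD, n = 4. Tissue arrays stand above all culture arrays for Tenm1, Tenm2, Tenm4 and Nlgn3 and below them for Tenm3 and Nlgn1.

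Of the neurexins, Nrxn2 passed against 3D and neither gene passed against 2D. Nrxn2, the gene of a presynaptic neurexin, was at 8.76, 8.64, 7.33 and 9.43 in tissue, against 7.32, 7.39, 7.56 and 7.20 in 3D cultures and 8.0, 7.57, 8.91 and 7.21 in 2D cultures. Tissue replicate 3 lay among the 3D values, and the 2D arrays spanned most of the tissue range. Nrxn2 was higher in tissue than in 3D by 1.17 (SE 0.38, limma adjusted p = 0.0419), although the arrays overlapped and an exact two-sided permutation test gave p = 0.0857, where 4 against 4 arrays allow no p below 0.0286. This call was lost in 10 of 21 alternatives, among them leaving out any 3D array (adjusted p from 0.0751 to 0.103) or tissue replicate 1, 2 or 4 (0.0740, 0.0998 and 0.0661), while without tissue replicate 3 the difference was 1.58 (adjusted p = 5.59e-04). Between tissue and 2D it was 0.62 (95% interval -0.47 to 1.71, adjusted p = 0.349), and the dimmer Nrxn2 probe set differed by 0.05 from 3D and -0.07 from 2D.

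Nrxn3 was at 9.09, 9.32, 9.62 and 9.14 in tissue, against 8.80, 8.99, 9.03 and 8.95 in 3D cultures and 8.85, 8.94, 8.95 and 9.25 in 2D cultures. All values lay within 8.80 to 9.62, and tissue stood just above 3D without overlap. The difference of 0.35 from 3D (95% interval 0.01 to 0.69) did not pass after adjustment over all probe sets (limma adjusted p = 0.0992, exact permutation p = 0.0286), nor did that of 0.30 from 2D (-0.09 to 0.68, adjusted p = 0.215). Nrxn3 has 5 probe sets, and in 2 dimmer ones tissue exceeded 3D, by 1.39 (adjusted p = 0.00114) and 1.07 (adjusted p = 0.0155), without passing against 2D (0.82 and 0.36, adjusted p = 0.111 and 0.522). Neurexin genes make long and short forms from separate promoters and many splice forms, and the arrays do not assign these probe sets to a form.

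The neuroligins differed among themselves. Nlgn3, an X-linked gene whose protein is found at excitatory and inhibitory synapses of the brain, was at 8.34, 8.64, 8.27 and 8.34 in tissue, against 5.10, 4.42, 5.05 and 4.83 in 3D cultures and 6.37, 5.41, 5.76 and 4.78 in 2D cultures. Tissue values were close together and far above the cultures, which at 4.42 to 6.37 lay near or below the array medians. The difference was 3.55 from 3D (SE 0.18, limma adjusted p = 5.67e-06) and 2.82 from 2D (SE 0.30, adjusted p = 6.47e-04), or 11.7-fold over 3D, an estimate given the low culture values. With tissue replicate 1 as the only tissue array the difference from 2D was 2.76 and short of the threshold (adjusted p = 0.0679). Its other probe sets were higher by 0.72 and 0.68 against 3D, of which the second passed (adjusted p = 0.141 and 0.00393), and by 0.37 and 0.56 against 2D, of which the second passed (adjusted p = 0.0372).

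Nlgn1, found mainly at excitatory synapses, went the other way. It was at 6.12, 5.90, 5.55 and 6.46 in tissue, against 8.02, 7.14, 7.13 and 7.39 in 3D cultures and 8.23, 7.62, 7.75 and 6.64 in 2D cultures. The highest tissue array was just below the lowest culture array, 2D replicate 4. The difference was -1.41 from 3D (SE 0.25, limma adjusted p = 0.00339) and -1.55 from 2D (SE 0.34, adjusted p = 0.0134), 2.66-fold and 2.93-fold higher in the cultures. Tissue levels lay near or below the array medians, so these folds are estimates. The call against 2D was lost in 4 of 21 alternatives, among them the mean of both probe sets (-0.58, adjusted p = 0.0591). The dimmer Nlgn1 probe set had the opposite sign, 0.38 and 0.39, and passed in neither. It too is the one listed with a RefSeq transcript.

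Nlgn2, the neuroligin of inhibitory synapses, which binds the scaffold protein gephyrin, was at 10.23, 10.08, 8.87 and 10.59 in tissue, against 10.19, 10.50, 10.45 and 10.59 in 3D cultures and 10.54, 10.22, 10.26 and 10.01 in 2D cultures. Tissue replicate 3 stood alone at the low end and the rest overlapped. No difference was detected from 3D (-0.49, 95% interval -1.24 to 0.26, limma adjusted p = 0.265) or from 2D (-0.32, interval -1.08 to 0.45, adjusted p = 0.495). Those intervals do not exclude a level lower in tissue by 1. Its second probe set had the opposite sign, with differences of 0.27 from 3D and 0.39 from 2D, also short of the threshold (adjusted p = 0.150 and 0.0834).

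**Figure D2:**
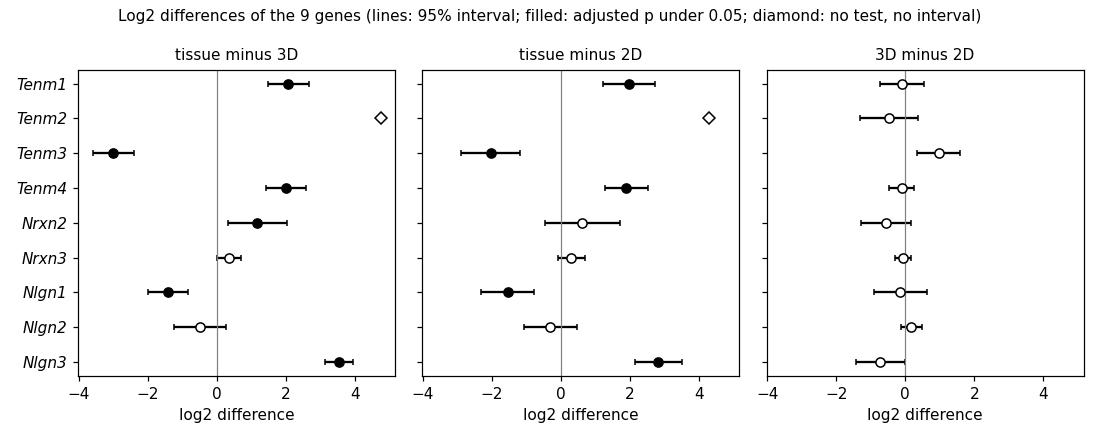
Log2 difference of each of the 9 genes for tissue minus 3D, tissue minus 2D and 3D minus 2D on a shared horizontal axis. Lines are 95% intervals of limma on 8 arrays, filled points have an adjusted p under 0.05 and diamonds (Tenm2 against cultures) have neither test nor interval; 6 filled points stand in the left panel, 5 in the middle and 0 in the right.

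Counted over the 8 genes that could be tested, 4 were higher in tissue than in 3D cultures (Tenm1, Tenm4, Nrxn2 and Nlgn3), 2 were lower (Tenm3 and Nlgn1) and 2 did not pass. Of all genes tested, 15.5% were called higher and 20.1% lower, 35.6% in either direction. The arrays of 4 of the 8 genes (Tenm1, Tenm4, Nrxn3 and Nlgn3) stood wholly above 3D and those of Tenm3 and Nlgn1 wholly below, as 18.3% and 24.1% of all genes did (42.4% in either direction). Against 2D, 3 were higher (Tenm1, Tenm4 and Nlgn3), 2 lower (Tenm3 and Nlgn1) and 3 did not pass, where 9.87% of all genes were called higher and 14.3% lower, 24.1% in either direction. In that comparison 3 of the 8 genes lay wholly above 2D and 2 wholly below, as 15.3% and 18.5% of all genes did (33.8% in either direction). The median difference over these 8 genes was 0.76 from 3D and 0.46 from 2D, against 0.03 over all genes in both comparisons, which share the tissue arrays. Among the 13 other probe sets of these 8 genes, 5 were higher and 1 lower in tissue than in 3D, and 3 and 0 against 2D. Of all 45037 probe sets, 7212 were higher and 7689 lower in tissue than in 3D, and 4682 and 5339 against 2D.

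**Figure D3:**
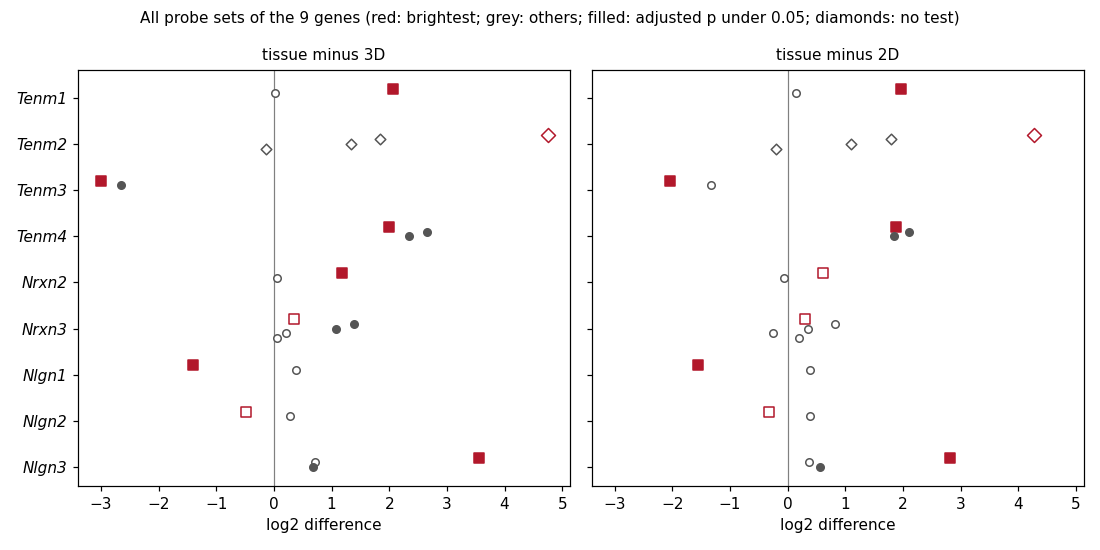
Log2 difference of all 25 probe sets of the 9 genes, tissue minus 3D (left) and tissue minus 2D (right). Red squares are the brightest probe set of a gene and grey circles its others, filled where the adjusted p is under 0.05; diamonds are Tenm2, not tested. The 3 probe sets of Tenm4 lie together, whereas in the left panel those of Tenm1, Tenm2, Nrxn2, Nrxn3, Nlgn1 and Nlgn3 spread over more than 1 unit, with opposite signs for Tenm2 and Nlgn1. Those of Nlgn2 also had opposite signs there, neither past the threshold.

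Between 3D and 2D cultures, 0 of the 9 genes passed by limma, where 3 of all genes (0.0165%) passed. At an unadjusted p under 0.05 stood 2 of the 9 (Tenm3 and Nlgn3), and 13.1% of all genes. Tenm3 was the only one of them whose arrays did not overlap, at 12.47 to 12.57 in 3D and 10.62 to 11.99 in 2D, which 4.49% of all genes showed in that direction, 2.87% in the other and 7.36% in either. It was higher in 3D by 0.96 (SE 0.27, 95% interval 0.34 to 1.58, p = 0.00692, adjusted p = 0.259, exact permutation p = 0.0286). Its other probe set gave 1.32 in the same direction (adjusted p = 0.284). Without 2D replicate 3, the lowest array, the Tenm3 difference was 0.65 (adjusted p = 0.0829). Nlgn3 was lower in 3D by a mean of 0.73 (interval -1.44 to -0.02, adjusted p = 0.422), with overlap. Tenm2, which was not chosen by its levels in 3D against 2D, differed by -0.47 (interval -1.31 to 0.38, adjusted p = 0.665), and the other genes by -0.56 to 0.18 (adjusted p of 0.549 and above).

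Arrays of 1 group did not vary independently from gene to gene. Tissue replicate 3 was the lowest tissue array for 8 of the 9 genes, all but Nrxn3, where it was the highest; it was the lowest for 41.7% of all genes. In 2D cultures, replicate 4 was the lowest for 6 of the 9 and replicate 1 the highest for 6, as for 23.5% and 19.1% of all genes. On 2D replicate 4 the mean level of 12 pan-neuronal markers was 10.28, against 11.45 to 11.70 on the other 2D arrays, and that of 10 sympathetic markers 9.50, against at most 11.30. These genes share their arrays, so the counts describe arrays and not separate observations.

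Some markers of neurons and of other cells were also called between tissue and cultures. Of all genes, 15.5% were called higher and 20.1% lower in tissue than in 3D, and 9.87% and 14.3% against 2D. Lists this short can lie near those shares. Of 10 sympathetic markers measured, 8 were higher in tissue than in 3D and 4 than in 2D, with a mean level of 11.11 to 12.54 on tissue arrays, 9.65 to 10.63 in 3D and 9.50 to 11.30 in 2D. Of 12 pan-neuronal markers, 5 and 2 were higher, at 10.73 to 12.34 in tissue, 10.73 to 11.42 in 3D and 10.28 to 11.70 in 2D. Satellite glia markers gave 10.48 to 11.46 in tissue, 11.04 to 11.08 in 3D and 10.83 to 11.34 in 2D, with 2 of 6 higher and 2 lower against 3D and 1 higher and 2 lower against 2D, and fibroblast markers 10.56 to 12.65, 12.09 to 12.67 and 11.60 to 12.24, with 1 of 7 lower against 3D and 2 higher and 1 lower against 2D. Endothelial markers were higher in tissue for 4 of 6 genes against 3D and 3 against 2D, and muscle markers for 5 of 8 against 3D and 3 against 2D. Macrophage markers were higher for 4 of 6 and lower for 1 against 3D, and higher for 0 and lower for 1 against 2D, and of 5 markers of myelinating Schwann cells 1 was higher and 1 lower against either culture. Between 3D and 2D, limma called 0 of the 60 markers, with 10 at an unadjusted p under 0.05, where 13.1% of all genes were. The part of these cell types in the levels of the 9 genes was not tested, and RMA values have no zero by which a marker could be called absent.

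**Figure D4:**
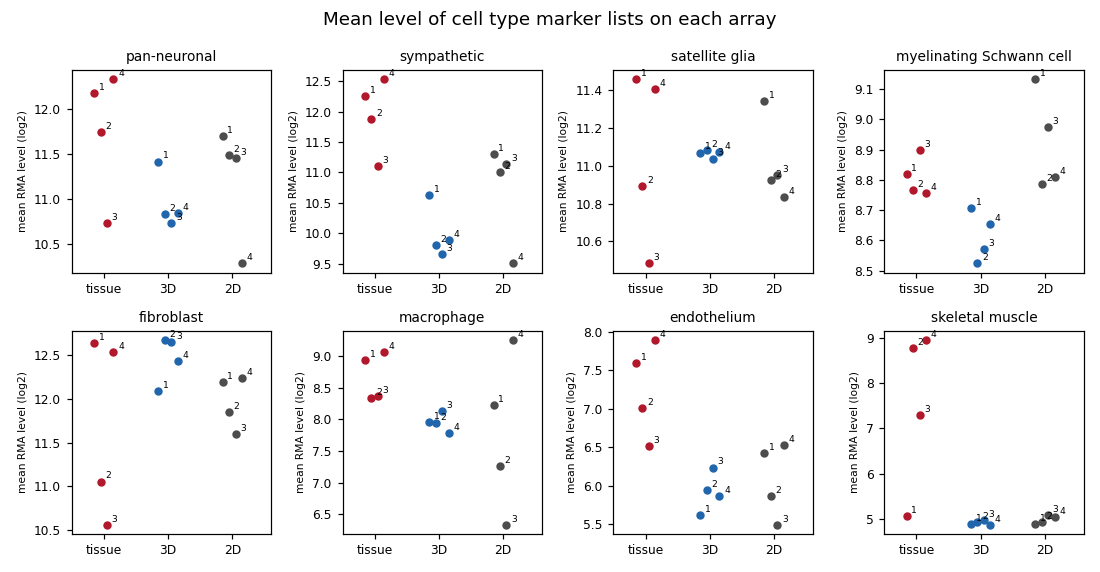
Mean log2 RMA level of 8 cell type marker lists on each array of tissue (red), 3D cultures (blue) and 2D cultures (grey), each panel with its own vertical axis and replicate numbers beside the points. Tissue replicates 2, 3 and 4 stand above all cultures for skeletal muscle, and 2D replicate 4 is the lowest 2D array for pan-neuronal and sympathetic markers.

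Genes whose proteins bind teneurins, neurexins or neuroligins, or work beside them, were followed in 6 lists with 84 genes, of which 79 were measured. Of these, 26 were higher and 15 lower in tissue than in 3D cultures, against 15.5% and 20.1% of all genes, and the median difference was 0.40. Against 2D, 19 were higher and 12 lower, against 9.87% and 14.3% of all genes, with a median of 0.33. The counts against 2D moved with the processing, to 30 higher and 6 lower after centring on bright probe sets, and to 6 lower without 2D replicate 1, 2D replicate 2 or tissue replicate 2 and 7 without 2D replicate 4. Between 3D and 2D, limma called 0 of 79, with 12 at an unadjusted p under 0.05, where 13.1% of all genes were.

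Teneurin partners were split, with 3 of 8 higher and 3 lower in tissue than in 3D, and 2 and 3 against 2D. Among all genes the shares were 15.5% and 20.1% against 3D, and 9.87% and 14.3% against 2D. Adgrl3, a latrophilin that binds teneurins and FLRT proteins, averaged 8.48 in tissue, against 10.27 in 3D and 9.30 in 2D, lower by 1.79 than in 3D (adjusted p = 8.68e-04). Flrt3, its partner from the postsynaptic side, averaged 6.87 in tissue, against 9.80 in 3D and 9.28 in 2D (difference from 3D -2.92, adjusted p = 1.63e-04). Dag1, for dystroglycan, which binds laminins and has been linked to teneurins, differed by -1.44 from 3D (adjusted p = 1.22e-04) and -1.18 from 2D (adjusted p = 0.00123). The 3 partners higher in tissue than in 3D were Flrt2 by 2.07 (adjusted p = 9.29e-04), the latrophilin Adgrl2 by 1.64 (adjusted p = 0.00103) and Flrt1 by 0.60 (adjusted p = 0.0204), so latrophilin and FLRT genes stood on both sides; these 3 are outside the rule for named genes and were added after their values were seen.

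Of 18 neurexin ligands, 6 were higher and 2 lower in tissue than in 3D, and 5 and 1 against 2D. All genes gave 15.5% and 20.1% against 3D, and 9.87% and 14.3% against 2D. Lrrtm1, a postsynaptic neurexin ligand with leucine-rich repeats, averaged 10.75 in tissue, against 7.64 in 3D (difference 3.12, adjusted p = 2.87e-05) and 8.33 in 2D (2.42, adjusted p = 0.00281). Cbln1, a secreted protein that bridges neurexins and glutamate receptors of the delta type, differed by 1.07 from 3D (adjusted p = 0.00116), and C1ql2, a secreted neurexin 3 ligand, by -1.32 (adjusted p = 5.33e-04). Of 4 neurexin relatives of the Cntnap family, Cntnap5a (2.55, adjusted p = 7.64e-04) and Cntnap2 (1.37, adjusted p = 0.00522), whose protein clusters potassium channels along axons, were higher than in 3D. Mdga2, which covers neuroligins and keeps neurexins away, was the 1 of 2 neuroligin regulators that passed (0.84, adjusted p = 0.0182), and it lost the call without 3D replicate 2, 3 or 4 (Mdga2 adjusted p = 0.0529, 0.0507 and 0.0571).

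Of 20 scaffold genes inside the synapse, 6 were higher and 6 lower in tissue than in 3D, and 4 and 5 against 2D. The shares of all genes were 15.5% and 20.1% against 3D, and 9.87% and 14.3% against 2D. Lists this short can lie near those shares. Lin7a, part of the presynaptic complex with Cask, differed by 2.95 (adjusted p = 7.09e-05) and Shank3, an excitatory postsynaptic scaffold, by 1.53 (adjusted p = 4.29e-04), while Dlg3, which binds neuroligins, differed by -1.12 (adjusted p = 2.93e-04). Among 27 other synaptic adhesion genes, 8 were higher and 4 lower in tissue than in 3D, and 7 and 3 against 2D. Slitrk6, which supports survival of sensory neurons in mice, averaged 4.71 in tissue, against 11.52 in 3D and 10.53 in 2D, the widest gap of all partner genes (-6.81 and -5.82, adjusted p = 1.36e-06 and 8.08e-05). Il1rap, a coreceptor of interleukin 1 that also binds presynaptic receptor phosphatases, differed by -3.21 from 3D and Ptprd, such a phosphatase, by 2.43 (adjusted p = 2.86e-06 and 8.99e-05).

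**Figure D5:**
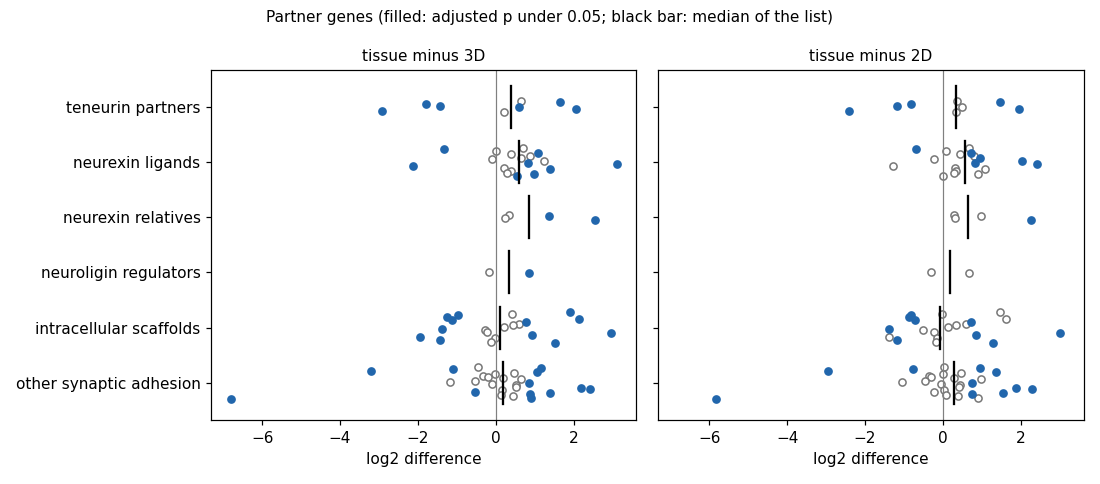
Log2 difference of 79 partner genes in 6 lists, tissue minus 3D (left) and tissue minus 2D (right), 1 point per gene, filled where the adjusted p is under 0.05; black bars are list medians. Higher and lower genes stand side by side in the teneurin partner and scaffold lists, and the point at -6.81 is Slitrk6.

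The likeness of profiles over the 12 arrays was measured as the root mean square difference after each gene was centred on its own mean, over 13107 other genes with a mean level of at least 6. Most like Tenm2 were Chrna7 (0.376), for the alpha 7 subunit of nicotinic acetylcholine receptors, Atp2b3 (0.658), a calcium pump of the plasma membrane, and Vwc2 (0.673), with a median of 2.28 over all genes. Chrna7 averaged 10.40 in tissue, 5.73 in 3D and 6.56 in 2D. Most like Nlgn3 were Rasgrp1 (0.244), an activator of Ras, Wscd2 (0.290) and Cacna2d2 (0.296), a subunit of calcium channels, with a median of 1.67. Most like Tenm3 were Gcnt1 (0.278) and C1galt1 (0.312), enzymes that build O-linked sugars, and Wipf1 (0.319), which regulates actin, with a median of 1.29. The 12 arrays of these profiles fall into 3 groups and were not scaled, so the likeness mainly describes group differences of similar direction and size. Each median lay near the SD of the member itself (2.29 for Tenm2, 1.65 for Nlgn3 and 1.39 for Tenm3). That is about the distance to a flat profile, so a value below the median is no test.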

How the data were processed

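The members and gene lists were chosen with earlier results of these data known. The authors deposited 1 table of log2 values made in Expression Console with RMA, which adjusts background, equalizes the distributions of arrays (quantile normalization) and summarizes probes; no source used here names its version. The values were used as deposited. Scan dates were not used, so batches were not tested. Of 45101 probe sets, 64 controls were left out and 45037 tested; 34945 carry 1 symbol in the platform annotation, 932 several, and 9160 are unnamed here, which gave 18193 genes, each by its probe set of highest mean. Of 84 genes in the partner lists 79 were analysed, and of 65 marker genes 60; the rest were not analysed here.

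Pairs of groups were compared on 8 arrays with limma 3.58.1 (lmFit, eBayes) in R 4.3.3, with p-values adjusted by Benjamini-Hochberg over all 45037 probe sets; an adjusted p under 0.05 counted as a call. Single genes also had an exact two-sided permutation test over 70 splits. Named are the 9 members, the 3 partner genes of each list with the smallest adjusted p between tissue and 3D among those past the threshold, and, for the 3 members of largest SD, the 3 genes nearest in profile. Promoter sequences are from RefSeq (GRCm38.p6); 7 of 9 genes matched, with 11 promoters. No arrays were alike in all values (0 pairs). Precision is set by the 4 arrays in a group: the median residual SD over genes was 0.29 for tissue against 3D, 0.33 for tissue against 2D and 0.17 for 3D against 2D. The test was tried on simulated data. Alternatives were 1 fit of all arrays, array weights, a robust prior with trend, bright probe sets only, cyclic loess, centring, a replicate block, the mean or the most variable probe set of a gene, the methods' t-test (adjusted and unadjusted), leaving out each array and, chosen after seeing the data, leaving out sets of arrays.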

Additional observations from a re-analysis of the deposited data

Results flagged for a closer look

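Of 27 groups of 4 arrays, 3 for each of the 9 genes, 2 held an array far from the rest by Dixon's test, which flags about 1 in 20 groups by chance. Tenm4 on tissue replicate 3 was 8.39, with the nearest tissue array at 9.36, a gap of 0.874 of the range of the group. Tenm3 on 2D replicate 3 was 10.62, with the nearest 2D array at 11.76, a gap of 0.832 of the range.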

How the results depend on the processing

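Over the 9 genes, 521 of 558 values under alternatives kept their direction and side of the threshold, 11 that were never called changed sign (Nlgn2 against 2D in 5; Tenm1, Nrxn3 and Nlgn1 between 3D and 2D in 2, 3 and 1), 18 lost a call, 6 gained one, 2 moved and 0 called values reversed. Tissue replicates 2, 3 and 4, with high muscle markers, left out together leave 1 tissue array, assumed to vary like the cultures: against 2D, 1 gene was then higher (3 before) and 0 lower (2 before), and 5 partner genes were higher (19 before) and 4 lower (12 before). Without tissue replicates 2 and 3, 1 gene was lower than in 2D, Nlgn1 losing its call (-1.27, adjusted p = 0.0744). With the mean of a gene's probe sets 1 gene was lower than in 2D, Tenm1 (1.06, adjusted p = 0.0551) and Nlgn1 (-0.58, 0.0591) lost their calls, Tenm2 moved to 1.95 from 3D and 1.74 from 2D, and Nrxn3 passed against 3D (0.61, 0.00456). With the methods' t-test, 1 gene was lower than in 2D after adjustment, and 1 (Tenm3) was higher in 3D than in 2D without adjustment. Array weights gave Nrxn2 a call against 2D (1.18, adjusted p = 0.0195).

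Of partner genes against 2D, 30 were higher and 6 lower after centring, 7 lower with cyclic loess and 7 with the adjusted t-test. Between 3D and 2D, 3 partner genes were higher with array weights, 7 higher and 1 lower with the unadjusted t-test, and 5 higher and 8 lower without 3D replicate 1 and 2D replicate 4. Leaving out each array in turn gave 3 to 4 genes higher and 2 lower than in 3D, 3 and 2 against 2D and 0 between cultures; for partners, 23 to 31 higher and 13 to 17 lower than in 3D, and 14 to 22 higher and 6 to 12 lower than in 2D, the lowest without 2D replicate 1 or 2 or tissue replicate 2. Centring moved the median of all genes to 0.31 in both tissue comparisons and the share of higher among called genes to 60.6% (43.5% before) against 3D and 61.6% (40.9% before) against 2D; cyclic loess gave 52.3% in both. Directions hold relative to that scaling.

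The labels number replicates 1 to 4 in each group, but correlations of deviations of same-numbered arrays ranged from -0.07 to 0.41, so the numbers were not taken as pairs. With a replicate block 3 genes were higher than in 3D (4 before), Nrxn2 losing its call (adjusted p = 0.0586), with the other calls of the 9 genes as before, and 0 probe sets passed between 3D and 2D (7 before).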
